A study of Mus musculus with 6 samples.

Results

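The T helper 2 axis was followed through 5 genes, chosen by name: the transcription factor Gata3, the cytokines Il4, Il13 and Il5, and the chemokine receptor Ccr8. Every probe set whose platform symbol was one of these names was taken, which gave 1 probe set for each of the 5 genes, out of 19938 genes on the array. None of the 5 probe sets carried a further symbol, and all 5 were tested, with no filter on low values.

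In T helper 2 cells Gata3 is the lineage-defining transcription factor, and it acts on the cytokine locus that holds Il4, Il13 and Il5. Interleukin 4 signals through the receptor chain Il4ra and the factor Stat6, which in turn raises Gata3, so that the program sustains itself. Follicular helper T cells, which carry the chemokine receptor Cxcr5 and depend on the repressor Bcl6, are also known to make interleukin 4, which they deliver to B cells in follicles.

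CD4+ T cells carrying the activation marker CD44 were sorted into 3 groups of 2 arrays: Cxcr5+Bcl6+ cells, Cxcr5+Bcl6- cells and Cxcr5-Bcl6- cells. All came from draining lymph nodes of male Bcl6-RFP reporter mice of 8 to 10 weeks, in which a red fluorescent protein reports Bcl6, after immunisation with KLH (keyhole limpet haemocyanin, a protein antigen) in CFA (complete Freund's adjuvant). The groups are bulk sorts of the CD44+ CD4+ pool by receptor and reporter, each possibly holding several T cell types, and unimmunised mice were not analysed here. The series calls arrays within a group biological replicates, and pooling of mice is not given in the labels. Cytokine transcripts depend on recent stimulation, and no restimulation step is described in the labels. The p-values measure the spread between these arrays alone.

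The sort genes followed the labels. Bcl6 averaged 11.50 in Cxcr5+Bcl6+ cells, 10.56 in Cxcr5+Bcl6- cells and 10.31 in Cxcr5-Bcl6- cells (log2 level), and Cxcr5 averaged 10.99 in Cxcr5+Bcl6+ cells, 9.94 in Cxcr5+Bcl6- cells and 7.47 in Cxcr5-Bcl6- cells. Cxcr5+Bcl6- cells gave a Bcl6 difference of 0.25 to Cxcr5-Bcl6- cells, which did not pass the threshold (adjusted p = 0.103). All 7 CD4 T cell markers lay on all 6 arrays above the 95th percentile of 1223 probe sets for olfactory, vomeronasal and trace-amine receptors, genes with no known role in T cells that serve here as a gauge of dim signal. This percentile was 7.72 and 7.73 on the Cxcr5+Bcl6+ arrays, 7.30 and 7.31 on the Cxcr5+Bcl6- arrays and 7.30 and 7.46 on the Cxcr5-Bcl6- arrays. Dim signal was thus higher in the group in which the 5 genes, below, were lower. Centring the arrays on these receptor genes lowers that group against the others and so deepens such falls. It kept every one of those calls, which is therefore no check of them. Within groups the 2 arrays correlated at 0.9966 to 0.9985 over probe sets, which are not independent replicates. Differences below are log2 differences from limma fitted to all 6 arrays, with p-values adjusted over 23410 probe sets and a threshold of 0.05. The 3 comparisons share arrays and are not independent. In sorted bulk RNA, fewer cells of a type and less RNA per cell cannot be told apart.

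All 5 genes were lower in Cxcr5+Bcl6+ cells than in Cxcr5-Bcl6- cells, with log2 differences of -0.60 (Il5) to -3.08 (Ccr8), where 17.7% of all probe sets tested were lower and 17.6% higher. All 5 were also lower in Cxcr5+Bcl6+ cells than in Cxcr5+Bcl6- cells, where 13% of probe sets were lower and 13.4% higher. Between Cxcr5+Bcl6- and Cxcr5-Bcl6- cells 1 of the 5, Il4, was lower and none was higher, where 5.93% of probe sets were lower and 5.22% higher. On both Cxcr5+Bcl6+ arrays every gene lay below all 4 other arrays, Il5 within the range of dim signal.

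**Figure D1:**
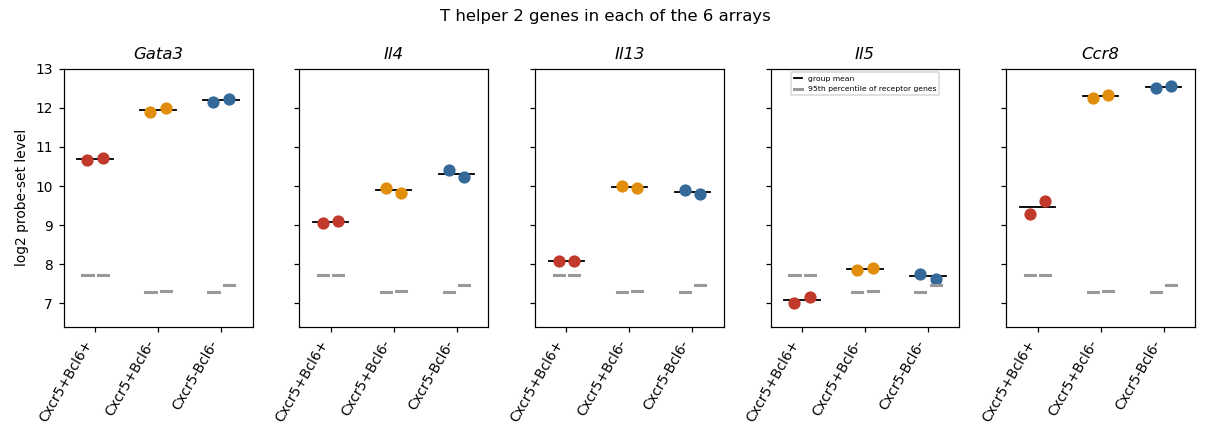
Log2 level of each of the 5 genes on every array (points), by sorted group, with the group mean as a bar and the receptor-gene 95th percentile of each array as a dim-signal gauge. The Cxcr5+Bcl6+ arrays are the lowest in every panel, and for Il5 they lie below the gauge.

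Gata3 (probe set 10479981) measured 10.65 and 10.73 on the Cxcr5+Bcl6+ arrays, 11.90 and 11.99 on the Cxcr5+Bcl6- arrays, and 12.15 and 12.22 on the Cxcr5-Bcl6- arrays. The 3 groups did not overlap, and the gap below the Cxcr5+Bcl6- arrays was wider than the gap above them. The level in Cxcr5+Bcl6+ cells differed from that in Cxcr5-Bcl6- cells by -1.50 (SE 0.0893, 95% interval -1.69 to -1.30, adjusted p = 2.41e-07), a 2.82-fold lower level. Against Cxcr5+Bcl6- cells it was 2.39-fold lower (-1.26, adjusted p = 1.62e-06). Cxcr5+Bcl6- cells differed from Cxcr5-Bcl6- cells by -0.24 (interval -0.44 to -0.05), which did not pass after adjustment (adjusted p = 0.124) but did with an intensity trend in the variance model (adjusted p = 0.0418). In Cxcr5+Bcl6+ cells Gata3 stayed above the dim-signal gauge on both arrays.

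Il4 (probe set 10385832), the cytokine of antibody class switching, measured 9.07 and 9.11 on the Cxcr5+Bcl6+ arrays, 9.95 and 9.83 on the Cxcr5+Bcl6- arrays, and 10.41 and 10.22 on the Cxcr5-Bcl6- arrays. It was the gene whose 3 groups formed 3 separate steps that each passed the threshold. The level was 2.34-fold lower in Cxcr5+Bcl6+ cells than in Cxcr5-Bcl6- cells (-1.23, SE 0.0972, interval -1.44 to -1.01, adjusted p = 2.03e-06). It was 1.74-fold lower than in Cxcr5+Bcl6- cells (-0.80, adjusted p = 0.00011). The upper step was 1.34-fold (-0.43, interval -0.64 to -0.21, adjusted p = 0.0148 for Cxcr5+Bcl6- against Cxcr5-Bcl6- cells) and was lost without Cxcr5-Bcl6- replicate 1 (-0.33, adjusted p = 0.0852) or Cxcr5+Bcl6- replicate 2 (-0.37, adjusted p = 0.168), with all rows tested (adjusted p = 0.0745) and with arrays centred on the receptor genes (adjusted p = 0.0621).

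Il13 (probe set 10385837), a cytokine that acts on epithelium and mucus-producing cells, measured 8.08 and 8.09 on the Cxcr5+Bcl6+ arrays, 9.99 and 9.95 on the Cxcr5+Bcl6- arrays, and 9.90 and 9.80 on the Cxcr5-Bcl6- arrays. The Cxcr5+Bcl6+ arrays lay 0.36 and 0.357 log2 units above the gauge, close to dim signal, and the other 4 arrays lay further above it. The level was 3.40-fold lower than in Cxcr5-Bcl6- cells (-1.77, SE 0.0877, adjusted p = 5.39e-08) and 3.69-fold lower than in Cxcr5+Bcl6- cells (-1.88, adjusted p = 7.62e-08). The Cxcr5+Bcl6- and Cxcr5-Bcl6- arrays did not overlap, but their difference of 0.12 (interval -0.07 to 0.31) did not pass (adjusted p = 0.538).

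Il5 (probe set 10376054), the cytokine that sustains eosinophils, measured 7.02 and 7.16 on the Cxcr5+Bcl6+ arrays, 7.86 and 7.91 on the Cxcr5+Bcl6- arrays, and 7.76 and 7.63 on the Cxcr5-Bcl6- arrays. It was the 1 gene of the 5 that lay below the gauge on any array: both Cxcr5+Bcl6+ arrays lay below it, by 0.70 and 0.57, whereas the Cxcr5+Bcl6- arrays lay 0.558 and 0.595 above and the Cxcr5-Bcl6- arrays 0.461 and 0.166 above. The Cxcr5+Bcl6+ signal differed by -0.60 from the Cxcr5-Bcl6- signal (SE 0.0942, adjusted p = 0.000354) and by -0.79 from the Cxcr5+Bcl6- signal (adjusted p = 9.1e-05). Cxcr5+Bcl6- against Cxcr5-Bcl6- cells gave 0.19 (interval -0.02 to 0.40), which did not pass (adjusted p = 0.28). With the Cxcr5+Bcl6+ arrays raised to the gauge, the difference was 0.03 against Cxcr5-Bcl6- cells and -0.16 against Cxcr5+Bcl6- cells. No fold is therefore given for Il5, whose lower signal in Cxcr5+Bcl6+ cells lies within the range of dim signal.

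Ccr8 (probe set 10590242), a receptor for the chemokine Ccl1 carried by T helper 2 and regulatory T cells, measured 9.29 and 9.61 on the Cxcr5+Bcl6+ arrays, 12.25 and 12.33 on the Cxcr5+Bcl6- arrays, and 12.50 and 12.57 on the Cxcr5-Bcl6- arrays. Its Cxcr5+Bcl6+ arrays stood far below both other groups without overlap, and they were also the pair furthest apart among the 15 pairs of replicate values (SD 0.229). The level was 8.46-fold lower than in Cxcr5-Bcl6- cells (-3.08, SE 0.111, adjusted p = 6.16e-09) and 7.15-fold lower than in Cxcr5+Bcl6- cells (-2.84, adjusted p = 1.94e-08). Cxcr5+Bcl6- against Cxcr5-Bcl6- cells gave -0.24 (interval -0.49 to 0.0009), which did not pass (adjusted p = 0.231). The differences between the 5 genes in the size of their change were not tested.

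**Figure D2:**
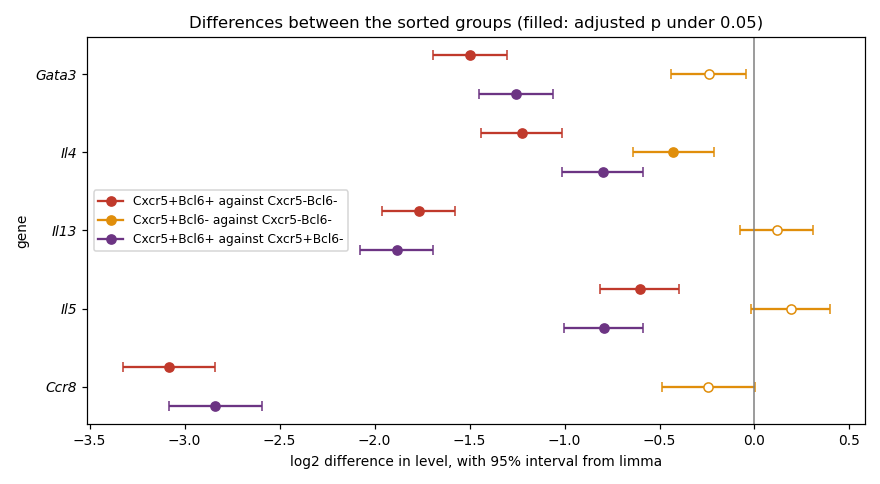
Log2 difference with limma's 95% interval for each of the 5 genes in the 3 comparisons. In the comparisons that involve Cxcr5+Bcl6+ cells all intervals lie below 0, whereas between Cxcr5+Bcl6- and Cxcr5-Bcl6- cells all but those of Il4 and Gata3 include 0.

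Il4, Il13 and Il5 are neighbours in 1 cluster of chromosome 11. Their signals were all lower in Cxcr5+Bcl6+ cells, that of Il5 within the range of dim signal. Their promoters are shown, from RefSeq on GRCm38.p6, 5′ to 3′ on the strand of the gene, from 250 bases before the start to 50 after it. Capitals mark GATA, the core recognised by Gata factors, and GGAAA, the core recognised by NFAT factors, which drive these cytokines after T cell receptor signals; both were searched on both strands. The windows are chr11:53618616-53618915 (minus strand, the most upstream of 2 starts) for Il4, chr11:53634653-53634952 (minus strand) for Il13 and chr11:53720544-53720843 (plus strand) for Il5.
Il4: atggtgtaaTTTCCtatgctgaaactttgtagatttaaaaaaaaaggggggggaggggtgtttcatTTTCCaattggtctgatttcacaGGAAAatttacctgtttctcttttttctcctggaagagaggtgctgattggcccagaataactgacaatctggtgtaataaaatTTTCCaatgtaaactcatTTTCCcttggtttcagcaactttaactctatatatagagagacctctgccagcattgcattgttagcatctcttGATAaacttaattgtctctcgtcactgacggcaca
Il13: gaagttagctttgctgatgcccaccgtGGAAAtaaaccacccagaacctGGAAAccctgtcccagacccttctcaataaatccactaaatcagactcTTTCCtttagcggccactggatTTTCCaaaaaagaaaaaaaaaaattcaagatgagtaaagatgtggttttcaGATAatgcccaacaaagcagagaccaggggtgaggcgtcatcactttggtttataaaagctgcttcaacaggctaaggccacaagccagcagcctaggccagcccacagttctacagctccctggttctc
Il5: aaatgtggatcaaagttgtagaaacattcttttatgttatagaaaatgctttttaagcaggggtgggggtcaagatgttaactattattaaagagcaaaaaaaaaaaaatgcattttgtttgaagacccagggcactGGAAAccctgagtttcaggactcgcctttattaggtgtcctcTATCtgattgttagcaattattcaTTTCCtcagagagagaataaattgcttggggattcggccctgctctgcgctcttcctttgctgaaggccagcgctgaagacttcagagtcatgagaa
The Il4 window held 1 GATA, 5 GGAAA and 1 stretch of TTC and GAA separated by 4 bases, the spacing known for Stat6, which overlaps a GGAAA. The Il13 window held 1 GATA, within AGATAA, and 4 GGAAA, and the Il5 window 1 GATA and 2 GGAAA. The promoters of Gata3 and Ccr8 each held 1 GATA, that of Ccr8 within AGATAA, with 2 and 0 GGAAA. Of 32851 mouse promoters of this length, 57.9% held GATA, 11.2% AGATAA, 61.3% GGAAA and 6.95% the TTC and GAA spacing, so the short cores are common letters; a match is not a binding site.

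In the same stretch of the chromosome the other genes did not move as a block. Rad50, the DNA repair gene between Il13 and Il5 that holds a control region of the cytokines, gave 0.21 in Cxcr5+Bcl6+ against Cxcr5-Bcl6- cells (adjusted p = 0.101) and Septin8 gave 0.003, and neither passed. Kif3a, the kinesin gene beside Il4, was higher by 1.14 (adjusted p = 6.62e-06), and by at least 0.66 with its Cxcr5-Bcl6- arrays, both under the gauge, raised to it. Irf1, an interferon response factor, fell by 1.60 (adjusted p = 1.78e-07), and the carnitine transporter Slc22a5 fell by 0.66. Of the 8 neighbours listed 1 rose and 2 fell, with a median of 0.01 against 0.04 over all genes, a share near that of all genes tested. Beyond them lie the cytokine genes Csf2 and Il3, both under the gauge in Cxcr5+Bcl6+ cells and described with the other cytokines.

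**Figure D3:**
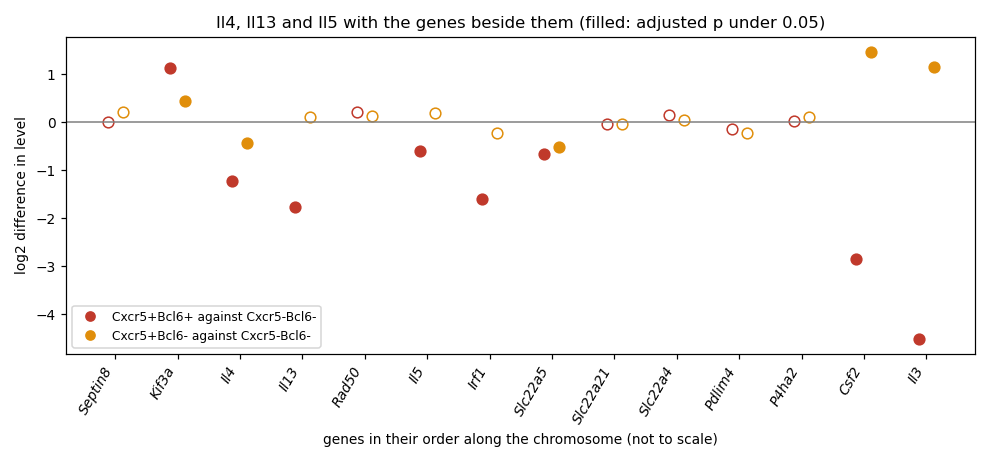
Log2 difference of Cxcr5+Bcl6+ against Cxcr5-Bcl6- cells and of Cxcr5+Bcl6- against Cxcr5-Bcl6- cells (points, filled where the adjusted p is under 0.05) for genes in their order along chromosome 11, not to scale. In Cxcr5+Bcl6+ cells Il4, Il13, Il5, Irf1, Slc22a5, Csf2 and Il3 lie below 0 while Rad50 between Il13 and Il5 does not pass. For Il5, Csf2 and Il3 the Cxcr5+Bcl6+ arrays lie under the dim-signal gauge.

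Of 6 other cytokines that T helper 2 cells can make, 4 fell in Cxcr5+Bcl6+ against Cxcr5-Bcl6- cells and none rose (median -1.50, against 0.04 over all genes). Of all 19938 genes 3535 fell and 3262 rose in this comparison. Il9, Il3 and Csf2 lay under the dim-signal gauge on both Cxcr5+Bcl6+ arrays and Il10 on 1 of them, so these differences are of signal, with bounds given by raising such arrays to the gauge. Il3, a growth factor for mast cells and basophils, fell by 4.53 (adjusted p = 4.69e-10), with a bound of -2.17. Csf2, the granulocyte and macrophage growth factor, fell by 2.86 (adjusted p = 9.67e-09), with a bound of -2.39, and the regulatory cytokine Il10 fell by 2.51 (adjusted p = 3.43e-07), with a bound of -2.35. For Il9 (-0.49) raising left no fall (0.14). In Cxcr5+Bcl6- against Cxcr5-Bcl6- cells 3 of the 6 rose: Csf2 (1.47), Il3 (1.15) and Il10 (0.55), the last lost on renewed quantile normalisation, and none fell (median 0.23, against -0.03 over all genes, of which 1097 rose and 1095 fell). Between the Cxcr5+ groups 4 of the 6 fell in Cxcr5+Bcl6+ cells and none rose (median -1.68, against 0.06 over all genes, of which 2624 fell and 2362 rose). Il3 in Cxcr5+Bcl6+ cells differed from its level in Cxcr5+Bcl6- cells by -5.67 (adjusted p = 9.47e-11), with a bound of -3.32.

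Of 14 receptor chains and signalling genes of the interleukins 4, 5 and 13, 8 fell and 4 rose in Cxcr5+Bcl6+ against Cxcr5-Bcl6- cells (median -0.28), where 3535 of 19938 genes fell and 3262 rose. With arrays centred on the receptor genes 9 fell and 1 rose (median -0.52), the rises of Jak1, Tyk2 and Stat5b being lost. Of all 23410 probe sets 8808 fell and 1732 rose under that centring. The fall it gained, of Il13ra2, was of a probe set under the gauge on all 6 arrays. Il4ra, the receptor chain for interleukin 4 and interleukin 13, fell by 1.82 (adjusted p = 7.79e-08), and its feedback inhibitor Socs1 fell by 2.02 (adjusted p = 2.66e-08). The shared chain of the interleukin 5 receptor, Csf2rb, fell by 1.85, with a bound of -1.42 since both Cxcr5+Bcl6+ arrays lay under the gauge. In Cxcr5+Bcl6- against Cxcr5-Bcl6- cells 5 of the 14 fell and 1 rose (median -0.13), where 1095 genes fell and 1097 rose. With receptor centring 3 fell and 2 rose, where 836 probe sets fell and 1733 rose. Between the Cxcr5+ groups 5 fell and 1 rose (median -0.11), where 2624 genes fell and 2362 rose. With receptor centring 9 fell and 0 rose, where 11905 probe sets fell and 705 rose. Il13ra2 and Il5ra, among the falls so gained, lay under the gauge on all 6 arrays. Between the Cxcr5+ groups Il4ra fell by 1.42 in Cxcr5+Bcl6+ cells. The 1 rise, Il13ra1, a chain of the interleukin 13 receptor, was of a probe set under the gauge on all 6 arrays, and the receptor genes themselves had a median difference of 0.30 in this comparison, so no size is given. Stat6 was not among the 4 genes of smallest p and is given after its values were seen: it fell by 0.28 against Cxcr5-Bcl6- cells (adjusted p = 0.0309).

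Of 15 factors that act with Gata3, 8 fell and 2 rose in the same comparison (median -0.52), and of 9 that oppose it, 5 fell and 2 rose (median -0.34), where 3535 of 19938 genes fell and 3262 rose. With receptor centring 12 of the 15 fell and 2 rose, and 7 of the 9 fell and 2 rose, where 8808 of 23410 probe sets fell and 1732 rose. Bhlhe41, Pparg and Hlx, among the falls so gained, lay under the gauge on all 6 arrays. Gfi1 fell by 1.77 (adjusted p = 4.86e-08) and Irf4, which acts downstream of the T cell receptor, fell by 1.55 (adjusted p = 1.22e-07). Tbx21, the T helper 1 lineage factor that antagonises Gata3, fell by 3.80 (adjusted p = 3.28e-10). Its mean of 7.82 in Cxcr5+Bcl6+ cells was close to dim signal, the gauge there being 7.72 and 7.73. Maf, a factor known to drive Il4, was higher by 0.78 (adjusted p = 3.34e-05; named after its values were seen) while Il4 was lower. In Cxcr5+Bcl6- against Cxcr5-Bcl6- cells Maf was higher by 0.79 (adjusted p = 0.000163), and between the Cxcr5+ groups it differed by -0.01. Between the Cxcr5+ groups 9 of the 15 acting with Gata3 fell and 1 rose, and 3 of the 9 opposing it fell and 2 rose, where 2624 genes fell and 2362 rose. With receptor centring 14 of the 15 fell and 0 rose, Maf then among the falls, and 6 of the 9 fell and 1 rose. That rescaling made 11905 of all 23410 probe sets fall and 705 rise. Bhlhe41, Pparg and Hlx were again among the falls gained. For Cxcr5+Bcl6- against Cxcr5-Bcl6- cells, 4 of the 15 fell and 3 rose, and 3 of the 9 fell and 1 rose, where 1095 genes fell and 1097 rose. With receptor centring 3 of the 15 fell and 3 rose, and 2 of the 9 fell and 2 rose, where 836 probe sets fell and 1733 rose. Rbpj, the mediator of Notch signals, fell by 1.38 in Cxcr5+Bcl6+ against Cxcr5-Bcl6- cells on 1 probe set, and its other, dimmer probe set was not called.

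Of 6 other surface receptors of T helper 2 cells, 4 fell in Cxcr5+Bcl6+ against Cxcr5-Bcl6- cells and none rose (median -0.44), where 3535 of 19938 genes fell. Ccr4, a chemokine receptor, fell by 1.18. Among the falls, that of Ccr3 was of a probe set under the gauge on all 6 arrays, so no size is given. Cysltr1 lay under the gauge on both Cxcr5+Bcl6+ arrays, with a bound of -0.11. Between the Cxcr5+ groups 3 of the 6 fell, where 2624 genes fell, and in Cxcr5+Bcl6- against Cxcr5-Bcl6- cells 0 of the 6 passed. The bound for Cysltr1 between the Cxcr5+ groups was -0.34. Ecm1, a secreted matrix protein that T helper 2 cells use in leaving lymph nodes, had been listed with these receptors and was set apart after its values were seen. It fell by 2.63 in Cxcr5+Bcl6+ against Cxcr5-Bcl6- cells, and Cxcr5+Bcl6- against Cxcr5-Bcl6- cells gave -1.40. Of 4 ligands of Ccr8 and Ccr4, 3 fell in Cxcr5+Bcl6+ against Cxcr5-Bcl6- cells, where 3535 of 19938 genes fell. Ccl1, above the gauge on all 6 arrays, gave -2.33. Both Cxcr5+Bcl6+ arrays lay under the gauge for Ccl22 and Ccl17, whose differences of -3.98 and -2.19 have bounds of -3.65 for Ccl22 and -1.96 for Ccl17. Cxcr5+Bcl6- against Cxcr5-Bcl6- cells gave -3.005 for Ccl22 and -0.83 for Ccl17, whereas Ccl1, the Ccr8 ligand made by T cells, was higher by 0.72. Ccl22 and Ccl17 are made mainly by dendritic cells. Of 9 myeloid and dendritic cell markers, 6 fell and 1 rose in each of these comparisons. Of all 19938 genes 3535 fell and 3262 rose in the first comparison, and 1095 fell and 1097 rose in the second. The summed level of the 9 markers was 10.47 and 10.45 in Cxcr5+Bcl6+ cells, 10.74 and 10.80 in Cxcr5+Bcl6- cells and 12.16 and 12.13 in Cxcr5-Bcl6- cells. Csf1r and Cd14 lay under the gauge on all 6 arrays and Lyz2, the 1 marker that rose, above it on all. On both Cxcr5+Bcl6+ arrays every marker but Lyz2 lay under the gauge, the 6 that fell among them. With these arrays raised to the gauge, the falls against Cxcr5-Bcl6- cells had bounds of -2.66 (Siglech) to -0.07 (Itgax). The part of these markers in the differences of Ccl22 and Ccl17 was not tested.

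**Figure D4:**
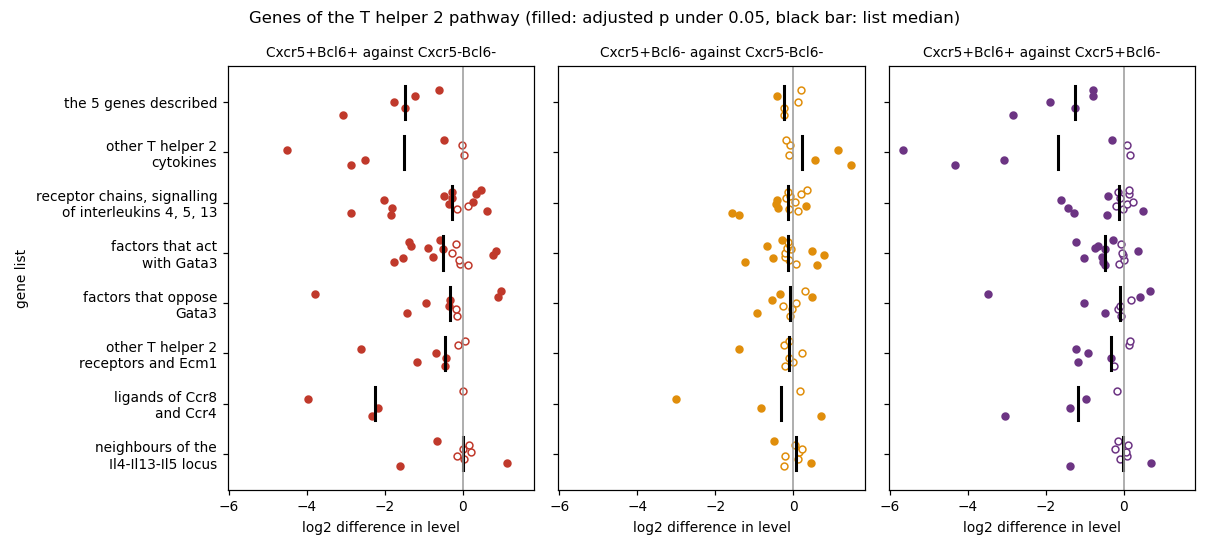
Log2 difference of each gene in the pathway lists, by comparison, with the list median as a bar and called genes filled. Other T helper 2 cytokines, the row of other receptors with Ecm1, and the ligands of Ccr8 and Ccr4 lie mostly below 0 in the comparisons with Cxcr5+Bcl6+ cells.

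Regulatory T cells also carry Gata3 and Ccr8. Of 10 regulatory T cell markers, 8 fell and none rose in Cxcr5+Bcl6+ against Cxcr5-Bcl6- cells (median -1.75), where 3535 of 19938 genes fell, and 9 fell against Cxcr5+Bcl6- cells, where 2624 genes fell. Ikzf2 (-0.20) and Nrp1 (-0.09) did not pass in the first comparison, nor Nrp1 (-0.06) in the second. In Cxcr5+Bcl6- against Cxcr5-Bcl6- cells 2 fell, Gpr83 (-1.59, adjusted p = 2.08e-06) and Lrrc32 (-1.015, adjusted p = 0.000125), and 1 rose, Itgae (0.37), where 1095 genes fell and 1097 rose. Foxp3, their lineage factor, fell by 2.89 against Cxcr5-Bcl6- cells and fell by 2.67 against Cxcr5+Bcl6- cells, and did not pass between Cxcr5+Bcl6- and Cxcr5-Bcl6- cells (-0.22, adjusted p = 0.272). The summed level of the list was 14.36 and 14.49 on the Cxcr5+Bcl6+ arrays, 15.64 and 15.65 on the Cxcr5+Bcl6- arrays and 15.79 and 15.86 on the Cxcr5-Bcl6- arrays. Its part in the differences of Ccr8 and Gata3 was not tested.

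Mast cells, basophils and eosinophils also make interleukin 4 and interleukin 13. Of their 14 markers 11, Cpa3, Mcpt8, Fcer1a and Prss34 among them, lay below the dim-signal gauge on all 6 arrays. In Cxcr5+Bcl6+ against Cxcr5-Bcl6- cells 1 of the 14, Prss34, rose and none fell, where 3262 of 19938 genes rose and 3535 fell. That rise was lost on renewed quantile normalisation and with receptor centring. The summed level of the 14 was 10.69 and 10.69 in Cxcr5+Bcl6+ cells, 10.55 and 10.57 in Cxcr5+Bcl6- cells and 10.51 and 10.60 in Cxcr5-Bcl6- cells. Of 6 markers of innate lymphoid and innate-like cells, another source of these cytokines, 3 were below the gauge on all arrays. Of the 6, 3 fell and 1 rose in Cxcr5+Bcl6+ against Cxcr5-Bcl6- cells, where 3535 of 19938 genes fell and 3262 rose. The rise, Klrb1c, was of a probe set under the gauge on all arrays, and the largest fall was that of Tyrobp (-2.46, with a bound of -2.42). The summed level of the 6 was 9.93 and 9.78 in Cxcr5+Bcl6+ cells, 10.16 and 10.10 in Cxcr5+Bcl6- cells and 11.14 and 10.92 in Cxcr5-Bcl6- cells. Of 7 B cell markers all 7 rose in Cxcr5+Bcl6+ against Cxcr5-Bcl6- cells (median 1.46), where 3262 of 19938 genes rose and 3535 fell. In Cxcr5+Bcl6- against Cxcr5-Bcl6- cells 6 rose (median 0.76), where 1097 genes rose and 1095 fell. Cd79a and Cr2 lay under the gauge on all 6 arrays, and Cd79b and Pax5 above it on all. Ebf1 lay under the gauge on the Cxcr5+Bcl6+ and Cxcr5-Bcl6- arrays. The receptor genes themselves had a median difference of 0.22 between these groups, and all 7 markers still rose with receptor centring. The summed level was 11.58 and 11.63 in Cxcr5+Bcl6+ cells, 11.03 and 10.96 in Cxcr5+Bcl6- cells and 10.07 and 10.07 in Cxcr5-Bcl6- cells. The part of these levels in the results was not tested.

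**Figure D5:**
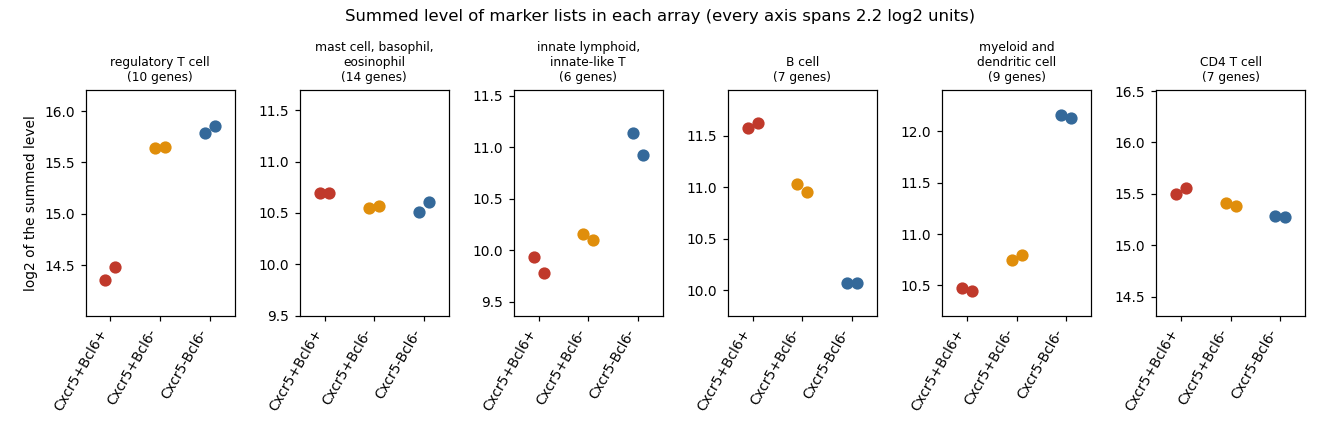
Summed log2 level of each marker list on every array, by sorted group. Regulatory T cell and myeloid lists are lowest in Cxcr5+Bcl6+ cells, the B cell list is highest there, and the mast cell, basophil and eosinophil list stays between 10.51 and 10.69. On the Cxcr5+Bcl6+ arrays all myeloid and dendritic cell markers but Lyz2 lie under the dim-signal gauge.

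The genes whose levels followed each of the 5 most closely were ranked by the root mean square distance between centred log2 levels over the 6 arrays, among 1579 genes with a range of at least 1. For Ccr8 they were Il2ra, the interleukin 2 receptor chain of activated and regulatory T cells (0.0711), Gbp7 and Ifit3. For Il4 they were Pwp1 (0.0248), Krr1 and Nol11. For Gata3 they were Rmdn3 (0.0604), Nr4a3 and Hk2, for Il13 Zbp1 (0.0601), Cxcl10 and Gbp3, and for Il5 Pxdc1 (0.0827), Slfn5 and Kit. None of the 5 was among the 3 nearest of another, since the nearest pair among them, Il4 and Gata3, lay 0.21 apart. Il5, with a range of 0.89, was not itself a candidate. With 3 group means over 6 arrays, many genes share such a pattern.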

How the data were processed

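Expression was measured on 6 Affymetrix whole-transcript arrays, 2 for each of 3 sorted groups. The authors deposited normalised log2 levels per probe set, the scale being read from the range of the values. Per the submitters' processing notes, GCOS 1.1, RMA and Affymetrix Expression Console were used; neither their order and settings nor a genome build is stated in the labels. Of 35556 rows, 23410 carried a gene symbol in the platform annotation, 1621 of them several. Symbols were updated through Entrez identifiers for 21698 probe sets.

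All 23410 named probe sets entered 1 fit with limma 3.58.1 (R 4.3.3, group means over all 6 arrays, eBayes defaults, no replicate block, two-sided), with Benjamini-Hochberg adjustment over all of them and a threshold of 0.05. The procedure was tested on simulated data. Intervals are limma's 95% intervals, unadjusted. Lists used 1 probe set per gene, that of highest mean level, and 116 of 123 listed genes were measured. From each pathway list, up to 4 genes with the smallest p per comparison were named, while genes of the marker lists and locus neighbours could all be named. Genes named for their dim signal were added after their values were seen. The genes and lists were chosen with earlier results of these data known. Alternatives were 2 eBayes options, 3 rescalings, 2 filters on dim probe sets, all rows, 1 probe set per gene, the 4 arrays compared, the replicate number as a term and each array left out in turn. Bounds raise any level under the receptor-gene 95th percentile of its array to it, a step chosen after seeing the data. The number of arrays limits the precision. Replicate numbers were not treated as pairs. Deviations of same-numbered arrays correlated at -0.234, 0.258 and -0.046 across probe sets in the 3 comparisons. With 2 arrays per group these values cannot settle whether the arrays were paired.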

Additional observations from a re-analysis of the deposited data

How the results depend on the processing

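Of 252 values of the 15 gene differences under alternatives, 247 kept direction and side of the threshold and none reversed. The exceptions were Il4 and Gata3 between Cxcr5+Bcl6- and Cxcr5-Bcl6- cells. Only the rescalings and leaving out an array of a compared group could change a difference itself. The other alternatives could move only its adjusted p, so they were no check of direction. Leaving out an array of the group not compared repeated the fit to the compared arrays alone, so the 252 values include duplicates. They also include receptor centring, which deepens falls in Cxcr5+Bcl6+ cells and is no check of them. Il4 missed the threshold with all rows tested (-0.43, adjusted p = 0.0745), a larger set of tests, and with arrays centred on the receptor genes (-0.34, adjusted p = 0.0621), a rescaling chosen after seeing the data. With 1 array left out it ranged from -0.52 to -0.33 and missed it in 2 cases. Gata3 passed with an intensity trend in eBayes (-0.24, adjusted p = 0.0418). The count of the 5 genes called there was therefore 2 with the trend, 0 with all rows, 0 with receptor centring and 0 to 1 with an array left out, against 1. Without probe sets below the median level, Il5 was not tested.

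The count of all calls between Cxcr5+Bcl6- and Cxcr5-Bcl6- cells was 2610, against 1579 with all rows and 1317 to 2624 with 1 array left out, the lowest without Cxcr5+Bcl6- replicate 1 (1317) and replicate 2 (1401). Between the Cxcr5+ groups it was 6185, against 3617 to 6987 with 1 array left out, the lowest without the same replicates (3617 and 3820), and 12610 with receptor centring. The cause was not tested beyond the fewer arrays. Receptor centring moved the median difference of all probe sets to -0.20 from 0.04 for Cxcr5+Bcl6+ against Cxcr5-Bcl6- cells and to -0.27 from 0.05 for the Cxcr5+ groups. It moved the share of rises among calls to 16.4% (49.8% as reported) and 5.59% (50.8% as reported), and to 67.5% (46.8% as reported) for Cxcr5+Bcl6- against Cxcr5-Bcl6- cells. Centring on each array's median gave 35.0% between the Cxcr5+ groups.

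The replicate block left the side of the threshold of all 15 gene differences unchanged, for example Il4 between Cxcr5+Bcl6- and Cxcr5-Bcl6- cells at an adjusted p of 0.0204, and gave 7942, 2411 and 5862 calls for the 3 comparisons in the order of the report, against 8255, 2610 and 6185. With crossed replicate numbers in the Cxcr5+Bcl6+ group, added after seeing the data, Cxcr5+Bcl6+ against Cxcr5-Bcl6- cells gave 9056 calls.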
